A study of Saccharomyces cerevisiae with 4 samples.

Results

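The genes described here encode the heat shock proteins and chaperones of budding yeast (Saccharomyces cerevisiae) in the cytosol, the mitochondria and the endoplasmic reticulum, together with the polyubiquitin gene UBI4 and the stress transcription factors Hsf1, Msn2 and Msn4. They were 42 genes, chosen by gene symbol in the annotation of the array and not by their measured values. A probe set of its own was found for 40 of them, among 5656 genes tested and 9335 probe sets on the array. SSB1 and SSB2 were read only by a probe set annotated to both.

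Transcripts were measured in biotin-labelled RNA of whole cultures on 4 Affymetrix arrays, each read in 1 colour. There were 2 arrays of the wild-type control strain and 2 of a strain with an H3 in which lysines 4, 36 and 79 are replaced by arginine, the residues methylated by Set1, Set2 and Dot1. Cells of both strains grew in selective galactose medium and then spent 9 h in selective glucose medium. Per the series text, glucose shuts off expression of the wild-type H3 and leaves the mutant H3 as the only source of the protein. Earlier times named there are not analysed here, nor are the strain background and marker genes. The series text calls the arrays replicate cultures. The comparison asks which genes depend on these lysines. In RNA of a whole culture, a change in every cell and a change in some of the cells cannot be told apart.

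Chaperones bind unfolded proteins and help them to fold, to cross membranes or to leave aggregates. In yeast their genes are switched on by the heat shock factor Hsf1, which responds to misfolded protein, and by the related factors Msn2 and Msn4, which respond to many stresses and to falling glucose signalling. Many chaperones exist both as a form made in all growing cells and as a form made mainly under stress. The CCT chaperonin, a ring that folds actin and tubulin, is a set of chaperones tied to growth more than to heat.

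Signals below are linear intensities after each array was scaled to the same median, and log2 changes are mutant minus wild type on log2(signal + 5.71). On this scale the median change of all genes was 0.02. Tests are limma's over all 5656 genes, with Benjamini-Hochberg adjusted p under 0.05 called a change. In that test 106 genes changed (1.87%), of which 58 were higher (1.03%) and 48 lower (0.849%). With 2 arrays against 2, an exact permutation test of a single gene cannot give p under 0.333. Log2 values correlated across genes with r = 0.986 between the wild-type arrays and r = 0.983 between the mutant arrays. The ratio of the 3' to the 5' control probe set of ACT1 stood at 1.14 and 1.13 on wild-type arrays and at 1.19 and 1.23 on mutant arrays. Ribosomal RNA controls read higher on both mutant arrays for 10 of 10 probe sets (median log2 change 1.43), and their part in the results below was not tested. Some other control probe sets read low on wild-type replicate 2. DapX-3 gave 892 and 271 in wild type against 985 and 699 in the mutant, and LysX-3 2610 and 949 against 3681 and 2089. Others did not, such as BioDn-3 at 524 and 525 against 513 and 439. The part of these controls was not tested either.

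Of the 40 measured genes 2 were called higher in the mutant (1.03% of all genes) and 0 lower (0.849% of all genes). Those called were HSP78, of the mitochondrial matrix, and UBI4. At an unadjusted p under 0.05, 13 of the 40 were higher and 0 lower, where 12% and 11.2% of all genes were. Both mutant arrays lay above both wild-type arrays for 20 of the 40 (28.1% of all genes) and below both for 2 (27.2% of all genes), CCT2 and CCT5. The median log2 change of the 40 genes was 0.21, and 27 of them lay above 0 (52.1% of all genes).

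**Figure D1:**
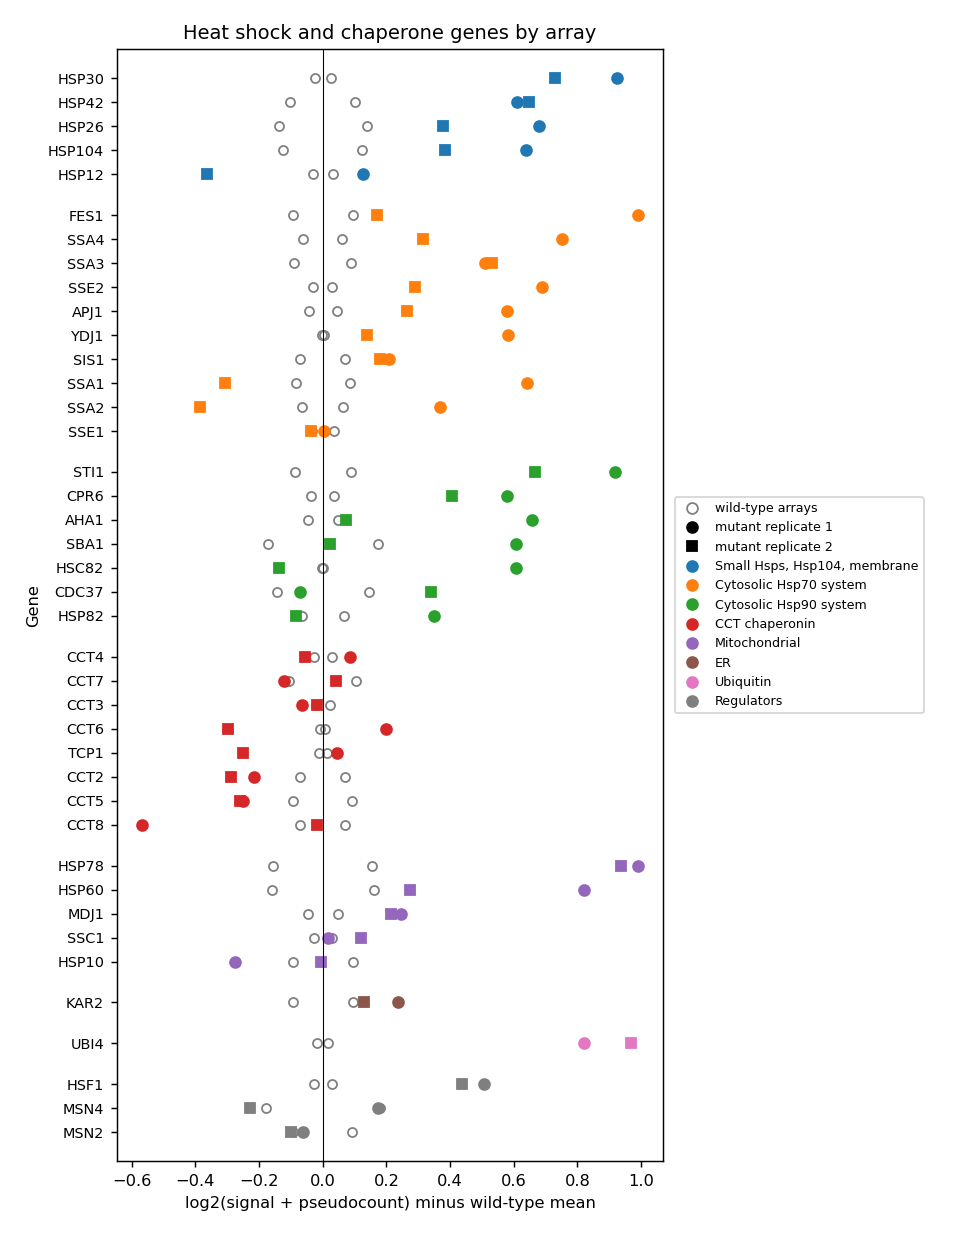
Log2(signal + pseudocount) minus the wild-type mean (horizontal axis) for each of the 40 genes (vertical axis), by class, with open circles for the wild-type arrays, filled circles for mutant replicate 1 and squares for mutant replicate 2. For HSP78 and UBI4 both mutant arrays lie far to the right of the wild-type arrays and close together, while for SSA1, SSA2 and HSC82 they lie on either side of the wild-type mean.

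HSP78 encodes the mitochondrial disaggregase, the matrix counterpart of Hsp104. Its signal was 46.3 and 58.9 on the wild-type arrays and 109.5 and 105 on the mutant arrays. The mutant arrays were close to each other and well above wild type. The means were 52.6 ± 8.87 and 107 ± 2.94 (SD, n = 2), 2.04-fold higher, with a log2 change of 0.96 ± 0.17 (SE, with limma adjusted p = 0.0453). UBI4 encodes ubiquitin as a chain of head-to-tail repeats and supplies it under stress. Wild-type arrays gave 250.2 and 244, mutant arrays 441 and 489. The groups did not overlap, and the wild-type arrays were almost equal. The log2 change was 0.89 ± 0.16 (SE; 1.88-fold, limma adjusted p = 0.0489).

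Both calls lay close to the threshold. HSP78 passed without wild-type replicate 2 (adjusted p = 0.0116) but missed when any other array was left out (adjusted p = 0.0619 to 0.123), and UBI4 missed without any 1 of the 4 arrays (adjusted p = 0.0569 to 0.261). Both also missed on the values as deposited, with equal trimmed means, in a fit of all probe sets, without a variance trend and by a plain test per gene (adjusted p = 0.0545 to 0.322). The log2 change stayed between 0.81 and 1.12 for HSP78 and between 0.82 and 0.97 for UBI4 when arrays were left out, and on the values as deposited it was 0.60 and 0.50, where the median change of all genes was -0.32.

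Hsp78 works in the mitochondrial matrix beside the Hsp70 Ssc1, its J-protein Mdj1 and the chaperonin of Hsp60 and Hsp10. The other genes of this compartment did not pass the test, and their values ranged widely. HSP60 gave 1061 and 847 against 1680 and 1148, a log2 change of 0.55 ± 0.27 (adjusted p = 0.277). Mutant arrays were both higher than wild type but far apart. Its partner HSP10 gave 731 and 641 in wild type against 564 and 682, a log2 change of -0.14 (95% interval -0.62 to 0.34). Thus HSP60 measured against HSP10 on the same array was above the wild-type mean by 1.10 and 0.28 on the mutant arrays, and the wild-type arrays lay 0.07 to either side. MDJ1 had a log2 change of 0.23 (86.7 and 92.9 against 107 and 105) and SSC1 0.07. SSC1, the essential import motor, overlapped between groups (265 and 255 against 263 and 283). Measured against SSC1 on the same array, HSP78 was higher by 0.97 and 0.82. The median log2 change of the 5 mitochondrial genes was 0.23.

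In the endoplasmic reticulum the Hsp70 gene KAR2, whose product binds proteins entering the secretory pathway, gave 1289 and 1131 in wild type against 1422 and 1321 in the mutant. The mutant arrays were higher, by a log2 change of 0.18 (95% interval -0.35 to 0.72, adjusted p = 0.669), which is less than the difference between the brighter and the dimmer wild-type array (0.19).

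**Figure D2:**
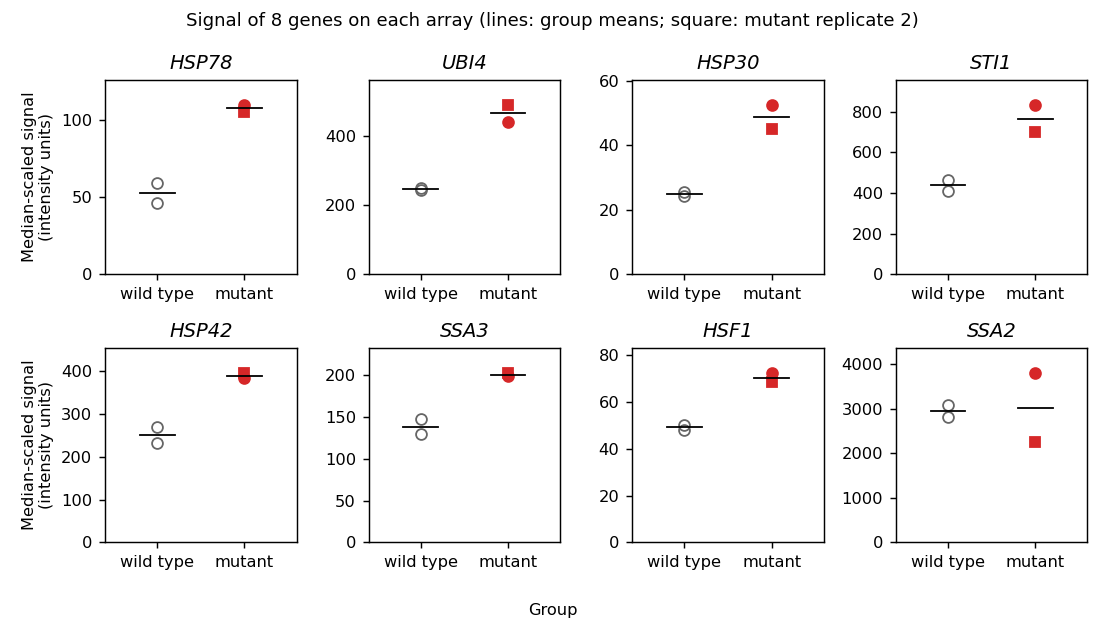
Median-scaled signal in intensity units (vertical axis, from 0) of 8 genes in wild type and mutant, with open circles for wild-type arrays, a filled circle for mutant replicate 1, a square for mutant replicate 2 and lines for group means. HSP78, UBI4, HSP42, SSA3 and HSF1 have close mutant arrays above both wild-type arrays, and the SSA2 mutant arrays lie at 3796 and 2247 around wild type.

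The class of small heat shock proteins, the disaggregase Hsp104 and the membrane stress proteins had a median change of 0.53 over 5 genes. For 4 of the 5 both mutant arrays lay above both wild-type arrays (28.1% of all genes). The class median was the highest of the classes with more than 1 gene. Without wild-type replicate 1 this order turned, with 0.38 relative to all genes against 0.40 for the Hsp90 class. HSP30 encodes a plasma membrane protein that restrains the proton pump. It gave 24.5 and 25.5 in wild type against 52.5 and 45.1 in the mutant, with a log2 change of 0.83 ± 0.16 (SE, with adjusted p = 0.0552). The small heat shock protein genes HSP42 and HSP26, whose products hold unfolded proteins, came next. HSP42 gave 233 and 269 against 385 and 396, a log2 change of 0.63 (adjusted p = 0.0927). HSP26 gave 149 and 182 against 267 and 216, a log2 change of 0.53 (adjusted p = 0.154). HSP104, which pulls proteins out of aggregates, gave 136 and 162 against 234 and 196, a log2 change of 0.51 (adjusted p = 0.149). None of these passed the test, although each pair of mutant arrays lay above wild type. HSP12, a membrane-associated protein gene and a classical Msn2/4 target, differed from them. Its signals of 2361 and 2258 in wild type against 2522 and 1792 in the mutant overlapped, with a log2 change of -0.12 (95% interval -0.81 to 0.58).

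In the cytosolic Hsp70 system 4 SSA genes were measured apart, and none passed the test. SSA1 and SSA2 encode the Hsp70 forms of growing cells, and SSA3 and SSA4 the forms made under stress. SSA3 gave 147 and 130 in wild type against 199 and 202 in the mutant (log2 0.52 ± 0.15, adjusted p = 0.115), and SSA4 gave 242 and 264 against 429 and 316 (log2 0.53 ± 0.20, adjusted p = 0.171). SSA1 gave 2762 and 2456 against 4069 and 2104, and SSA2 gave 3075 and 2810 against 3796 and 2247. For SSA1 and SSA2 mutant replicate 1 was above both wild-type arrays and mutant replicate 2 below both, so that their log2 changes of 0.17 and -0.01 have 95% intervals of -0.74 to 1.07 and -0.85 to 0.83. Measured against SSA2 on the same array, SSA4 was 0.38 and 0.70 above the wild-type mean on the mutant arrays, and SSA3 0.14 and 0.92. The wild-type arrays lay within 0.13 of their mean for both pairs. Measured against SSA1, SSA4 stood at 0.11 and 0.62 and SSA3 at -0.13 and 0.84, with the wild-type arrays within 0.15. On this scaling, neither was above SSA1 on mutant replicate 1 by more than the wild-type spread. The SSA1 value comes from a probe set with a suffix, and 2 further sets annotated to SSA1 and SSA2 together had log2 changes of 0.17 and 0.15.

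The Hsp110 genes SSE1 and SSE2, whose products exchange the nucleotide of Hsp70, are likewise a constitutive and a stress form. SSE1 gave 572 and 545 in wild type against 560 and 544 in the mutant, with the arrays overlapping (log2 -0.02, 95% interval -0.43 to 0.40). SSE2 gave 183 and 191 against 305 and 229.9 (log2 0.49 ± 0.18, adjusted p = 0.177). SSE2 measured against SSE1 was higher by 0.68 and 0.33 on the mutant arrays, with the wild-type arrays 0.06 to either side of their mean. No test was run on these differences within an array. Scaling by 1 factor per array leaves them unchanged apart from the pseudocount, but a normalization that varies with signal level does not. After cyclic loess, described below, SSA1 was at 0.34 and -0.08 from the wild-type mean on mutant replicates 1 and 2. SSA2 was then at 0.06 and -0.16, SSA3 at 0.47 and 0.58, and SSA4 at 0.67 and 0.39.

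Of the partners of Hsp70, FES1, another nucleotide exchange factor gene, gave 277 and 317 in wild type against 594 and 334 in the mutant. Its log2 change of 0.58 ± 0.28 (SE, with adjusted p = 0.258) was carried mostly by mutant replicate 1, at 0.99 above the wild-type mean against 0.17 for replicate 2. The J-protein genes, whose products deliver clients to Hsp70, had log2 changes of 0.42 for APJ1, 0.36 for YDJ1 and 0.19 for SIS1. For all 3 both mutant arrays were above both wild-type arrays (28.1% of all genes), and none passed the test. The probe set shared by SSB1 and SSB2, the Hsp70 genes whose products bind nascent chains at the ribosome, gave 1695 and 1527 against 1997 and 1373, a log2 change of 0.04 (95% interval -0.63 to 0.71). The class median over the 10 genes of this system with their own probe set was 0.39. Of the 10, 7 had both mutant arrays above both wild-type arrays (28.1% of all genes).

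In the Hsp90 system none of 7 genes passed the test, and STI1 had the highest value. STI1 encodes the adaptor that hands clients from Hsp70 to Hsp90. It gave 411 and 465 in wild type against 832 and 697 in the mutant, a log2 change of 0.79 ± 0.19 (SE; 1.75-fold, adjusted p = 0.0804). The cyclophilin gene CPR6 gave 669 and 637 against 978 and 867 (log2 0.49, adjusted p = 0.194), and the ATPase activator gene AHA1 gave 382 and 358 against 587 and 389 (log2 0.37, adjusted p = 0.382). In these 3 genes the mutant arrays were above wild type (28.1% of all genes), by very little for AHA1 on replicate 2. SBA1, the p23 homologue, had a log2 change of 0.31 and CDC37, the kinase-specific co-chaperone, 0.13, both with overlapping arrays. Of the Hsp90 genes, HSP82 is the more heat-inducible and HSC82 the constitutive form. HSC82 gave 1795 and 1789 in wild type against 2730 and 1629 in the mutant (log2 0.23, 95% interval -0.52 to 0.99). HSP82 gave 755 and 688 against 919 and 680 (log2 0.13, 95% interval -0.40 to 0.66). HSP82 measured against HSC82 was at -0.26 and 0.05 on the mutant arrays, with the wild-type arrays 0.06 to either side of their mean. The HSP82 probe set has a suffix, and the set annotated to both genes had a log2 change of 0.18. All 7 genes of the Hsp90 class lay above 0 (52.1% of all genes), with a median of 0.31.

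The CCT genes lay near or below 0. Of the 8 subunit genes 7 lay below 0 (2712 of all 5656 genes). The median was -0.08, with a range from -0.29 for CCT8 to 0.02 for CCT4. None was called in either direction, and none had an unadjusted p under 0.05. CCT5 gave 491 and 431 in wild type against 386 and 383 in the mutant (log2 -0.26, 95% interval -0.66 to 0.15). CCT2 gave 524 and 475 against 429 and 408 (log2 -0.25, adjusted p = 0.424). In these genes, 2 of the 8, the mutant arrays were both lower than wild type (27.2% of all genes). CCT8 gave 341 and 309 against 217 and 321, so that its log2 change of -0.29 rests on mutant replicate 1. TCP1, which encodes the alpha subunit, had -0.10, CCT6 -0.05, CCT3 -0.04 and CCT7 -0.04, all with overlapping arrays.

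The contrast between CCT and the rest was present on both mutant arrays. The median of 29 genes, UBI4 and the chaperones other than CCT, minus the median of CCT was 0.70 and 0.37 above the wild-type mean on mutant replicates 1 and 2, while the wild-type arrays lay 0.04 to either side. Against CCT, the class of small heat shock proteins stood at 0.73 and 0.54, the Hsp70 system at 0.67 and 0.33, the Hsp90 system at 0.70 and 0.23 and the mitochondrial class at 0.34 and 0.37. The cytosolic classes other than CCT therefore had the larger values on mutant replicate 1. The mitochondrial median was alike on both arrays, but it was the value of MDJ1 alone on each. Its other genes were not all alike. HSP60 stood at 0.82 and 0.27 from the wild-type mean on mutant replicates 1 and 2, and HSP10 at -0.276 and -0.005. The difference between the Hsp70 system and the mitochondrial class changed sign between the mutant arrays, at 0.33 and -0.04. No test was run on these medians, since the genes were chosen with results of these arrays known.

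**Figure D3:**
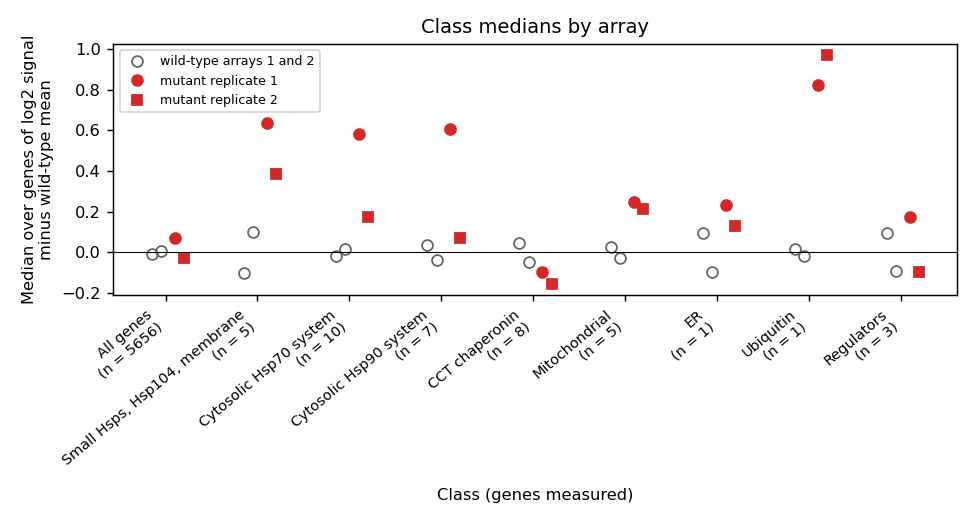
Median over the genes of each class of log2 signal minus the wild-type mean (vertical axis) on each array, for all genes and for 8 classes (horizontal axis, with the number of genes measured), with open circles for wild-type arrays, filled circles for mutant replicate 1 and squares for mutant replicate 2. On mutant replicates 1 and 2 the Hsp90 median is 0.61 and 0.07. The mitochondrial median is 0.25 and 0.22, the value of MDJ1 on both.

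Among the regulators, HSF1 gave 48 and 50.2 in wild type against 72.2 and 68.5 in the mutant. The groups did not overlap and the arrays of each group were close, with a log2 change of 0.47 ± 0.15 (SE; 1.43-fold, adjusted p = 0.134). MSN2 gave 102 and 88.6 against 90.6 and 88.2 (log2 -0.08, 95% interval -0.44 to 0.28), and MSN4 gave 59.9 and 45.5 against 59.7 and 43.8 (log2 -0.03, 95% interval -0.52 to 0.46). Both overlapped between groups. HSF1 measured against MSN2 on the same array was 0.57 and 0.54 higher on the mutant arrays, with the wild-type arrays 0.12 to either side of their mean. Hsf1, Msn2 and Msn4 are controlled largely after transcription, so transcript levels do not measure their activity.

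The 2 mutant arrays differed in a way that touches many of these genes. Mutant replicate 2 was lower than replicate 1 by more than 0.4 (log2) for 13 of the 40 genes and higher by more than 0.4 for 2, CDC37 and CCT8. The same held for 17.5% and 8.75% of all genes, and for 31.5% and 4.31% of the brightest 25% of genes, which held 32 of the 40. When all genes were parted by level into 4 bins of 1414, the median difference of replicate 2 minus replicate 1 was -0.05, -0.03 and -0.10 in the dimmer bins in order of level and -0.26 in the brightest. The widest differences were those of SSA1 (-0.95), FES1 (-0.82), SSA2 (-0.76) and HSC82 (-0.74). Genes for which both mutant arrays were more than 0.4 above the wild-type mean were HSP30, HSP42, SSA3, STI1, CPR6, HSP78, UBI4 and HSF1, 8 of the 40 (9.28% of all genes), a limit chosen after the values were seen.

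**Figure D4:**
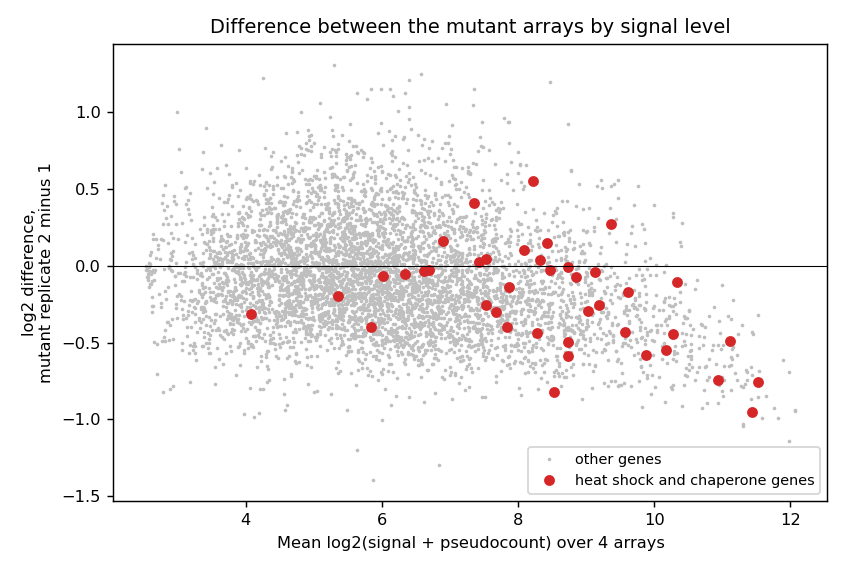
Log2 difference of mutant replicate 2 minus replicate 1 (vertical axis) against the mean log2(signal + pseudocount) over the 4 arrays (horizontal axis) for the 40 genes (red) and all other genes tested (grey). The difference falls toward the bright end, where SSA1 lies at -0.95 and SSA2 at -0.76.

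Cyclic loess normalization, which levels arrays along the signal and was added after this trend was seen, brought the mutant arrays closer for the bright genes. The difference between the mutant arrays then exceeded 0.4 in either direction for 5 of the 40 genes, in place of 15, and for 1177 of all 5656 genes. For some genes the difference widened, from 0.27 to 0.56 for HSP10, from 0.55 to 0.70 for CCT8 and from 0.15 to 0.32 for UBI4. The changes between groups moved little, and the median log2 change of the 40 genes was 0.20. Both mutant arrays lay above wild type for 22 (28.8% of all genes) and below for 4 (28.8% of all genes). An unadjusted limma p under 0.05, in either direction, was found for 15 of the 40 and for 1435 of all 5656 genes. HSP78 (log2 0.98), UBI4 (log2 0.89) and STI1 (log2 0.78) were called, each at an adjusted p of 0.0441. SSA2 had -0.05 with a 95% interval of -0.33 to 0.23, HSC82 had 0.20 with an interval of -0.11 to 0.52, and YDJ1 had 0.34 with an interval of 0.07 to 0.61 (adjusted p = 0.134).

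Lists of folding genes outside these 42 had medians near or below 0. Of 20 other cytosolic chaperone and co-chaperone genes 9 lay above 0 (52.1% of all genes) and the median was -0.06. SNL1, a nucleotide exchange factor gene for Hsp70, had a log2 change of -0.78 (71.2 and 85.7 in wild type, 39.5 and 46.7 in the mutant, adjusted p = 0.0659), and BTN2, whose product gathers misfolded proteins, had 0.68 (61.2 and 64.2 against 97.7 and 110.2, adjusted p = 0.0692). Of 11 genes for ribosome-associated chaperones and prefoldin, which brings actin and tubulin to CCT, 10 lay below 0 (2712 of all 5656 genes). Their median was -0.20. EGD1, of the nascent polypeptide-associated complex, had -0.72 (adjusted p = 0.140), and the prefoldin gene GIM4 had -0.40 (adjusted p = 0.187). None of these passed the test.

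The other organelle chaperones were likewise mixed. Of 12 further mitochondrial genes 4 lay above 0 (52.1% of all genes), with a median of -0.02. ECM10, which encodes a matrix Hsp70 closely related to Ssc1, had 0.73 with signals of 4.55 and 6.24 against 13.8 and 11.7, near the pseudocount, so that this change understates the ratio. The import motor gene PAM16 had -0.57 (adjusted p = 0.288), carried mostly by mutant replicate 1, at -1.03 from the wild-type mean against -0.11 for replicate 2. Of 17 further genes of the endoplasmic reticulum 8 lay above 0 (52.1% of all genes), with a median of -0.04. The calnexin gene CNE1 had -0.76 (adjusted p = 0.0610) and the translocon gene SEC63 -0.63 (adjusted p = 0.0822). At an unadjusted limma p under 0.05, 3 of the 17 were higher and 2 lower, where 12% and 11.2% of all genes were. No gene of either list passed the test.

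Among stress genes that do not encode chaperones, 16 of 18 other Msn2/4 targets lay above 0 (52.1% of all genes). Their median was 0.30, and none passed the test. RTN2 had 0.73 (adjusted p = 0.0720) and TFS1, a carboxypeptidase inhibitor gene, 0.72 (adjusted p = 0.115). In a short list of other ubiquitin and Hsf1-linked genes 3 of 7 were measured. The coactivator gene MBF1 had 0.78 (adjusted p = 0.0749), the proteasome regulator gene RPN4 0.52, and RPS31, which makes ubiquitin fused to a ribosomal protein, -0.13. UBI4 and RPS31 thus differed, at 0.89 and -0.13.

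**Figure D5:**
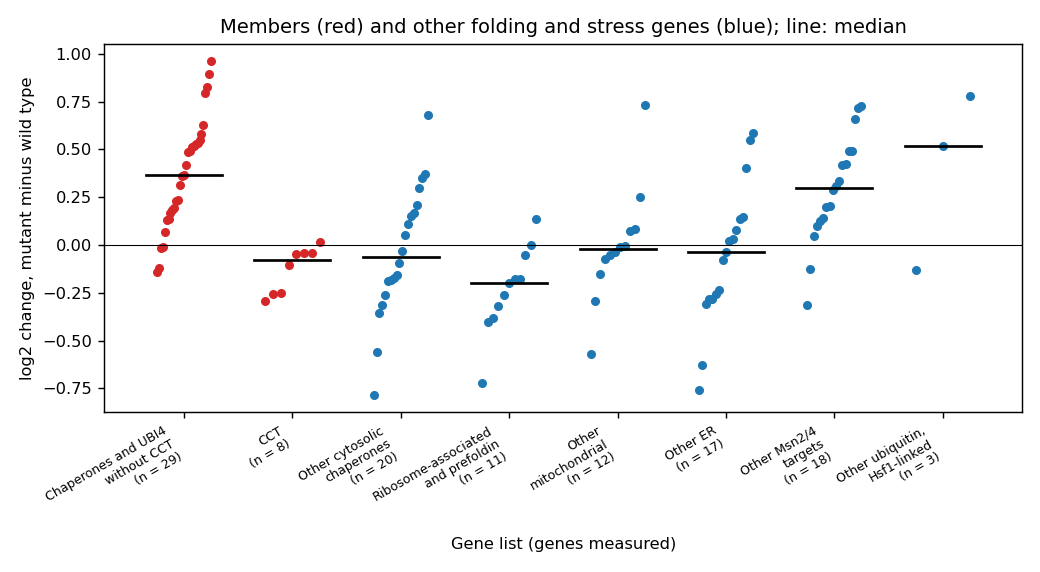
Log2 change, mutant minus wild type (vertical axis), of each gene in 8 lists (horizontal axis, with the number of genes measured), red for the genes described first and blue for other folding and stress genes, with a line at each median. The medians are 0.37 for chaperones and UBI4 without CCT, -0.08 for CCT, -0.20 for the ribosome-associated and prefoldin genes and 0.30 for the other Msn2/4 targets.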

How the data were processed

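The authors deposited linear intensity values, 1 for each probe set and array, which come from MAS5 (version not stated) per the submitters' processing notes. All values of each array were whole multiples (tolerance 0.01) of a step of 0.1 in wild type and of 0.0849 and 0.0700 in mutant replicates 1 and 2, so the mutant arrays carry a further constant each, of unknown origin. In steps of 0.1 the trimmed means (2 to 98 percent) were 124.3, 124.2, 124.4 and 124.4.

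Arrays were brought to 1 common median, the mean of the 4 deposited medians, and a pseudocount of 5.71 (the 20th percentile) was added before log2. The array's annotation names 1 gene for 6504 probe sets, more than 1 for 328 and no gene for 2503, of which 60 are controls. The probe set without a suffix, then the brightest, was used for each gene. limma 3.58.1 in R 4.3.3 was used (lmFit, eBayes with trend, two-sided). Precision is limited by the number of arrays, and p-values measure the spread between these arrays. On simulated data 83.5% of 200 genes changed 2-fold and 100% of 200 changed 4-fold were called among 5656, with 3 and 7 unchanged genes called. The simulated noise was independent between genes and arrays. It held no difference between the mutant arrays that varies with signal level, so these shares may overstate what these arrays can detect.

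Members and lists were chosen with earlier results of these data known. Text names, by rule, members past the test, the 3 largest changes in each class, paralogs and regulators, and the 2 largest of each other list; the remaining members are named so that all are accounted for. Same-numbered arrays did not deviate together (r = -0.02 across genes), so no block was used. Promoter motifs were planned and are not analysed here. Alternatives were other scalings, pseudocounts, probe set rules, a filter, variance models, a replicate block and leaving out arrays.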

Additional observations from a re-analysis of the deposited data

How the results depend on the processing

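Over 16 alternatives, 1 of them (cyclic loess) chosen after seeing the data, 586 of 640 log2 changes of the 40 genes kept their direction and side of the threshold, and 20 genes kept their sign throughout. Only 2 of the 40 were called in the main comparison, so this share mostly counts genes that stayed uncalled. The 32 sign changes came from genes that were not called, and the cause was not tested. Without rescaling the deposited values, which put the all-gene median at -0.32, 66 genes were called higher and 1065 lower (58 and 48 in the main comparison), 0 of the 40, and negative log2 changes were found for HSP82 (-0.26), HSC82 (-0.16), SSA1 (-0.23), SSC1 (-0.32), YDJ1 (-0.035), SIS1 (-0.20), AHA1 (-0.027), KAR2 (-0.21), MDJ1 (-0.14), SBA1 (-0.080), CDC37 (-0.25) and CCT4 (-0.37). Equal trimmed means called 38 genes higher and 33 lower, 0 of the 40, with CCT4 at -0.0074. The fit of all probe sets called 11 higher and 21 lower, eBayes without a trend 39 and 30, and a plain equal-variance test 0 and 1 (825 at an unadjusted p under 0.05), each with 0 of the 40 called. The filter on dim genes called 92 higher and 64 lower, with HSP30 added to the 2 calls, and quantile normalization and cyclic loess added STI1. With the replicate block 425 genes were higher and 283 lower, and 4 of the 40, HSP30 and STI1 being added. The replicate numbers in the titles do not say whether same-numbered arrays were paired. Leaving out each array gave 0 to 196 genes higher, 0 to 85 lower and 0 to 1 of the 40 higher, with 0 genes called without either mutant array (2139 at an unadjusted p under 0.05 without mutant replicate 2 and 1510 without replicate 1). Relative to all genes, medians then ranged from 0.16 to 0.37 for all 40 genes, 0.38 to 0.66 for the small heat shock class, 0.20 to 0.51 for Hsp70, 0.10 to 0.53 for Hsp90, -0.17 to -0.091 for CCT, 0.17 to 0.27 for mitochondria and -0.18 to 0.14 for regulators. Sign changes on leaving out an array gave ranges of -0.36 to 0.13 for HSP12, -0.084 to 0.35 for HSP82, -0.14 to 0.61 for HSC82, -0.31 to 0.64 for SSA1, -0.39 to 0.37 for SSA2, -0.050 to 0.017 for SSE1, -0.070 to 0.34 for CDC37, -0.25 to 0.045 for TCP1, -0.055 to 0.086 for CCT4, -0.30 to 0.20 for CCT6, -0.15 to 0.064 for CCT7, -0.17 to 0.012 for MSN2 and -0.23 to 0.17 for MSN4. Where 1 array is left in a group, its spread is taken from the other group. Signal over background was not used here, and only APJ1 of the 40 lay in the dimmest 25% of genes.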
